A study of Mus musculus with 2 samples.

Results

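The genes of oxidative phosphorylation were examined in EYFP+ cells sorted from the adult mouse dentate gyrus. All listed symbols that start with mt-, Nduf, Sdha, Sdhb, Sdhc, Sdhd, Uqcr, Atp5 or Cox and a digit were taken, without symbols that contain -ps. This gave 119 of the 32285 listed genes, 106 encoded in the nucleus and 13 in mitochondrial DNA, and 1 symbol, Ndufb1-ps, was left out. By symbol, the nuclear genes comprised 76 structural subunits, 22 assembly factors and 8 isoforms of restricted tissue distribution. Of these, Cox8c and Ndufa4l2 had 0 UMIs in all 10804 cells.

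Oxidative phosphorylation takes place at the inner mitochondrial membrane. Complex I (NADH dehydrogenase) and complex II (succinate dehydrogenase) pass electrons to ubiquinone, complex III passes them on to cytochrome c, and complex IV (cytochrome c oxidase) passes them to oxygen. Complexes I, III and IV pump protons, and complex V, the ATP synthase, uses the gradient to make ATP. The catalytic cores of complexes I, III and IV and part of complex V are encoded in mitochondrial DNA. The other subunits, and all of complex II, come from nuclear genes, so the complexes need products of both genomes. Quiescent neural stem cells are known to rely more on glycolysis and fatty acid oxidation than their neuronal progeny, which take up oxidative phosphorylation as they differentiate.

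The study compared 1 WT library with 1 inducible VEGF knockdown (iKD) library, each made from 5 pooled littermates aged 7 to 10 wk at the start of tamoxifen (TAM). WT mice carried NestinCreERT2, wild-type Vegfa alleles and ROSA-STOP-EYFP, and iKD mice carried the same Cre and reporter with floxed Vegfa. Both genotypes therefore carried the Cre driver and received TAM, at 180 mg/kg/d for 5 d, and EYFP+ cells were sorted 21 d after TAM. The Nestin driver acts in Nestin-expressing cells, where Cre switches on EYFP and, in iKD mice, recombines Vegfa. With 1 library per genotype no test was possible, no p-value is given, and all intervals are exact 95% intervals that cover counting error only.

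The WT library held 5543 cells with a median of 8051 UMIs, and the iKD library 5261 cells with a median of 7080. The libraries shared 9 cell barcodes. Over qNSC1, qNSC2, aNSCs, NSPCs, IPC1 and IPC2 (the 6 clusters that the study describes as containing stem or intermediate progenitor cells), Vegfa had 74 UMIs and a level of 0.0226 counts per 10,000 UMIs in WT and 36 UMIs and 0.0137 in iKD. 3′ counts need not read the deleted stretch of Vegfa, so they do not check the genotype. The cluster names are those of the deposited tables, and the marker genes went against them. In these clusters and eNB and NB (the 8 clusters below), the 10 microglia markers were detected in a median of 99.98% of cells, the 9 neural stem cell markers in a median of 0.360% and the 8 intermediate progenitor and neuroblast markers in 0.039%. In the cluster named Astrocytes, all 8 choroid plexus markers were detected in over 52% of cells and summed to 1081 counts per 10,000 UMIs, against 1.19 for the 6 astrocyte markers. The clusters are therefore called by their deposited names only, and the last one is written as the astrocyte-named cluster.

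Levels were averaged over cells, after the UMIs of a gene in each cell were scaled to counts per 10,000 of all its UMIs. These are 3′ counts that were not divided by gene length. Over the 8 clusters the 106 nuclear genes summed to 83.1 in WT and 82.3 in iKD, and the 13 mt-encoded genes to 85.8 and 83.9. The nuclear genes of complex I summed to 26.3 over both genotypes, those of complex II to 2.73, complex III to 7.28, complex IV to 16.6 and complex V to 20.5. The assembly factors summed to 9.24 and the tissue isoforms to 0.055. The subunit genes with the highest levels were Cox4i1 at 3.43, Cox8a at 2.29 and Atp5g2 at 1.98. Cox4i1 is the common form of cytochrome oxidase subunit 4, Cox8a that of subunit 8, and Atp5g2 encodes the membrane ring subunit c of ATP synthase.

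The sequences just upstream of 3 pairs of cytochrome oxidase genes are shown here because each pair holds a widely expressed form and a tissue isoform of the same subunit, and these forms differed most among the genes between clusters. Each is the 200 bases before the RefSeq start on build GRCm38.p6, written 5′ to 3′ on the strand of the gene, and capitals mark CpG dinucleotides.
Cox8a, chr19:7217617-7217816, minus strand: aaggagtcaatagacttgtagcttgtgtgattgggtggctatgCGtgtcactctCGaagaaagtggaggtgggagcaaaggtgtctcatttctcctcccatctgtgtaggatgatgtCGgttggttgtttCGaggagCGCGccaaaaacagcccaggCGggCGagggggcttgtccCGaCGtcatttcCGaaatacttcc
Cox8b, chr7:140900447-140900646, minus strand: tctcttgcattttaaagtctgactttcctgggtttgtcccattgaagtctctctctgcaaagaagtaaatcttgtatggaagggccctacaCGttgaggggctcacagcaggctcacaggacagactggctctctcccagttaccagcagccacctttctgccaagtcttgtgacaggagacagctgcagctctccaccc
Cox6b1, chr7:30626115-30626314, minus strand: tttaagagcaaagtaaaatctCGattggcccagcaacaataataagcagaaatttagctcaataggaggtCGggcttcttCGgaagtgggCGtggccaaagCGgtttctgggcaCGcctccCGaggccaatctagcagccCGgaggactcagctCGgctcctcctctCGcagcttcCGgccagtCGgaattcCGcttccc
Cox6b2, chr7:4753095-4753294, minus strand: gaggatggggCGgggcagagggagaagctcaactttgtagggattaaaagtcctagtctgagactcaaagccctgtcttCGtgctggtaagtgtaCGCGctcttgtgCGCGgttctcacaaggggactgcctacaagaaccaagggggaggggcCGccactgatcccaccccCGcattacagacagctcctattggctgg
Cox7a2, chr9:79759854-79760053, minus strand: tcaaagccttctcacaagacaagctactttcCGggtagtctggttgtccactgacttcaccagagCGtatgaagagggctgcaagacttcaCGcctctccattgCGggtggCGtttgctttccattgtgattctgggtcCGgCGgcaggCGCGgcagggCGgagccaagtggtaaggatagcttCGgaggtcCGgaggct
Cox7a1, chr7:30183971-30184170, plus strand: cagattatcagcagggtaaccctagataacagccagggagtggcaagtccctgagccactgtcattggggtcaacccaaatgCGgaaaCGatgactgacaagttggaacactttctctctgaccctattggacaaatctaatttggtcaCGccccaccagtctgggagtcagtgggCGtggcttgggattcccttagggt
The widely expressed forms held 11 (Cox8a), 13 (Cox6b1) and 12 (Cox7a2) CpG in these 200 bases, and the tissue isoforms 1 (Cox8b), 8 (Cox6b2) and 4 (Cox7a1). Over longer windows, from 250 bases before to 50 bases after the start, 93 windows of 87 nuclear genes were found in the RefSeq table and 19 genes had none. Their median was 20 CpG, against 7 over all 32851 windows of the table, and the 4 windows of tissue isoforms had a median of 8.5. The ETS letters CCGGAAG, read on both strands as were all motifs, occurred in 30.1% of the windows and in 8.86% of all windows. For the NRF1 core GCATGCGC the shares were 12.9% and 2.71%, for the YY1 letters AAGATGGC 13.98% and 2.75%, for the cyclic AMP element TGACGTCA 4.30% and 1.79%, and for TATAAA 11.8% and 13.6%. Among cytosolic ribosomal protein genes, with a median of 21 CpG, the ETS letters occurred in 28.6% of windows, a share near that of the respiratory genes. The NRF1 core occurred there in 5.49%, the YY1 letters in 8.79%, the cyclic AMP element in 5.49% and TATAAA in 9.89%. Of the 20 windows of assembly factors, 11 held the ETS letters. The 4 windows of the tissue isoforms Cox6b2, Cox7a1, Cox7b2 and Cox8b held none of the ETS, NRF1, YY1 and cyclic AMP letters. A match of letters is a description of the sequence and not a binding site.

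The level of the nuclear genes differed little among the 8 clusters and was far higher in the astrocyte-named cluster. Over qNSC1 the summed nuclear level was 95.4 in WT and 97.3 in iKD, over qNSC2 85.5 and 83.4, and over aNSCs 83.1 and 78.9. NSPCs had 98.2 and 96.98. The level was 77.9 in both genotypes of IPC1, 77.4 and 79.2 in IPC2, 76.7 and 76.1 in eNB, and 78.7 and 79.8 in NB. NSPCs and qNSC1 were thus the 2 highest clusters in each library, and the ranges of the other 6 clusters lay below them. Outside the 8 clusters, IN1 had 77.1 and 84.0, with 41 and 9 cells, and IN2 had 28.9 and 37.5. IN2 cells were shallow, with a median of 3102.5 UMIs. The 40 cells of the Undefined cluster had 181 and 193. The astrocyte-named cluster had 922.8 in its 4 WT cells and 789.5 in its 130 iKD cells.

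The mt-encoded level was likewise highest in qNSC1 and NSPCs among the 8 clusters but did not stand out in the astrocyte-named cluster. It was 101 in WT and 98.5 in iKD over qNSC1, 92.6 and 87.9 over qNSC2, 90.8 and 87.4 over aNSCs, and 98.1 and 97.1 over NSPCs. IPC1 had 80.8 and 81.1, IPC2 79.4 and 77.4, eNB 83.4 and 78.9, and NB 75.7 and 79.6. The astrocyte-named cluster had 90.4 in iKD and 16.6 (9.49 to 27.0) in its 4 WT cells. Over both genotypes the mt-encoded level divided by the nuclear level was between 0.980 and 1.10 in the 8 clusters, 1.75 in IN2 and 0.111 in the astrocyte-named cluster. The Undefined cluster stood between these, at 0.633. Across the 8 clusters the nuclear and mt-encoded levels correlated with a Pearson r of 0.93 and a Spearman rho of 0.74 (n = 8), and across all 12 with an r of 0.17 and a rho of 0.71 (n = 12). These are descriptions, since the clusters share the same 2 libraries and the same cells defined them.

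**Figure D1:**
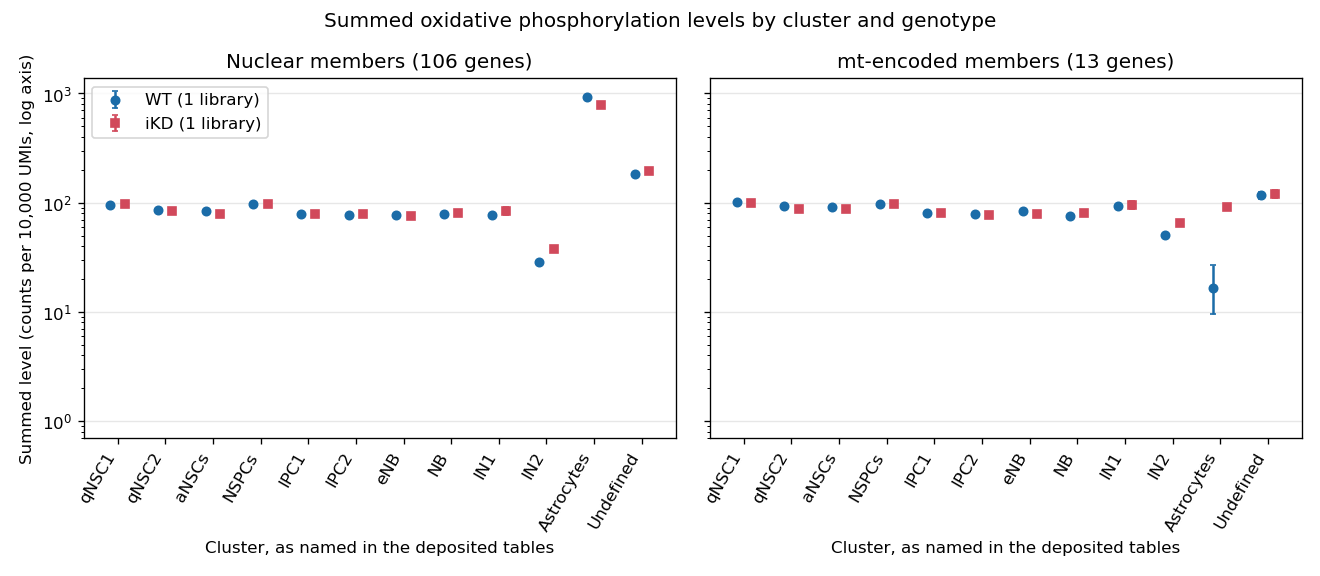
Summed level of the 106 nuclear genes (left) and the 13 mt-encoded genes (right) in each cluster, in counts per 10,000 UMIs on a log axis. Circles are the WT library and squares the iKD library, with bars for the 95% counting interval. The astrocyte-named cluster stands at 922.8 and 789.5 for the nuclear genes, while for the mt-encoded genes its iKD cells lie at 90.4, within the range of the other clusters, and its 4 WT cells at 16.6.

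The mt-encoded levels have an upper bound that the nuclear ones do not, because the study removed cells with a high mitochondrial share. The methods give a limit of 2% of transcripts, and in the deposited cells the highest share was 1.75%, a level of 174.9. In the 8 clusters the cells held a median share of 0.72% to 1.04% by cluster and genotype, and 5.62% of cells were at 1.5% or more. In the astrocyte-named cluster 18.7% of the cells were at 1.5% or more. How far this limit shaped the mt-encoded level of that cluster was not tested.

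Single cells showed the same separation. The nuclear level of a cell reached at most 189.2 in the 10292 cells of the 8 clusters, whereas 120 of the 134 cells of the astrocyte-named cluster were at 200 or more. Cells of that cluster spanned 64.4 to 1341, with a median of 861. Its 4 WT cells had nuclear levels of 706, 730, 946 and 1310, and their mt-encoded levels were 13.01, 53.4, 0 and 0. Each of these 4 was above every cell of the 8 clusters in nuclear level.

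**Figure D2:**
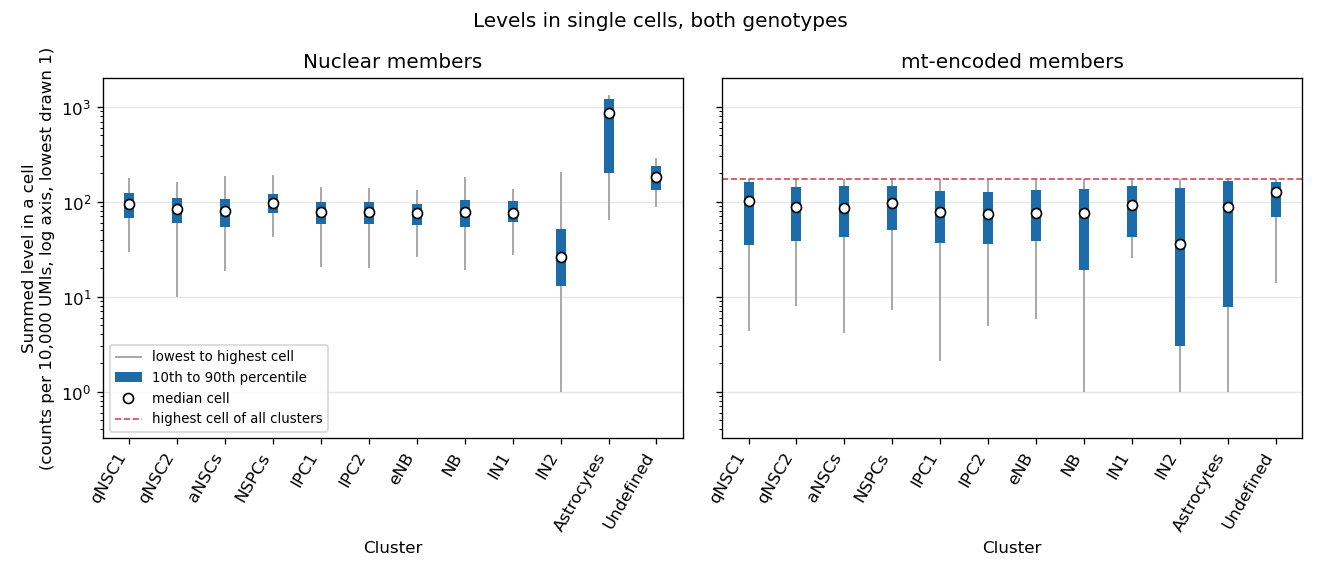
Summed nuclear level (left) and mt-encoded level (right) of single cells by cluster, on a log axis in counts per 10,000 UMIs. Circles are median cells, thick bars the 10th to 90th percentile and thin lines the lowest to the highest cell, and the dashed line marks the highest mt-encoded level of all cells, 174.9. The median nuclear level of the astrocyte-named cluster, 861, lies above the highest cell of the 8 clusters, 189.2, and its lowest cell, 64.4, lies within their range, while no cell of any cluster lies above the dashed line in mt-encoded level.

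The cells of the astrocyte-named cluster were not alike, and their nuclear level differed between groups made by sex-linked genes. Cells were scored as female by Xist and as male by 4 Y-linked genes. Of the 134 cells, 101 had UMIs of neither, and these had a median nuclear level of 950 beside 4.53 for the summed microglia markers and 1115 for the choroid plexus markers. The 25 cells scored as female had medians of 292 for the nuclear level, 260 for microglia markers and 336 for choroid plexus markers. The 7 cells scored as male had 171, 324 and 479, and the 1 cell scored as both had 160, 424 and 110. Across these groups the microglia markers ran high where the nuclear level was lower. The choroid plexus markers did not keep the order of the nuclear level. In order of nuclear level, the 4 WT cells had choroid plexus marker levels of 2247, 0, 139 and 254. The part of either marker set in the nuclear level was not tested. No doublet caller was run.

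Set against the 8 clusters, over both genotypes, the summed nuclear level of the astrocyte-named cluster was 793 against 82.7, a ratio of 9.59. The mt-encoded level was 88.2 against 84.9, a ratio of 1.04. Among cells scored as female alone the nuclear ratio was 4.23 and the mt-encoded ratio 1.20, and among cells scored as male 3.64 and 0.820. Since the clusters were made from the same cells, these ratios are a description and not a test. Of the 106 nuclear genes, 92 reached a level of 0.5 in either group. Of these 88 were at least 2-fold higher in the astrocyte-named cluster (27.4% of all genes with that level were) and 0 were 2-fold lower (43.7% of all genes). The direction of 22 of the 92 was fixed by the filter, since they reached that level only in the astrocyte-named cluster. Of the 70 that reached it in the 8 clusters, 66 were at least 2-fold higher, beside 11.9% of all genes so filtered, and 0 were 2-fold lower, beside 56.2%. None of the 11 mt-encoded genes with that level differed by 2-fold in either direction. Cytosolic ribosomal proteins, another large set of abundant housekeeping genes, had 788 against 456, a ratio of 1.73.

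**Figure D3:**
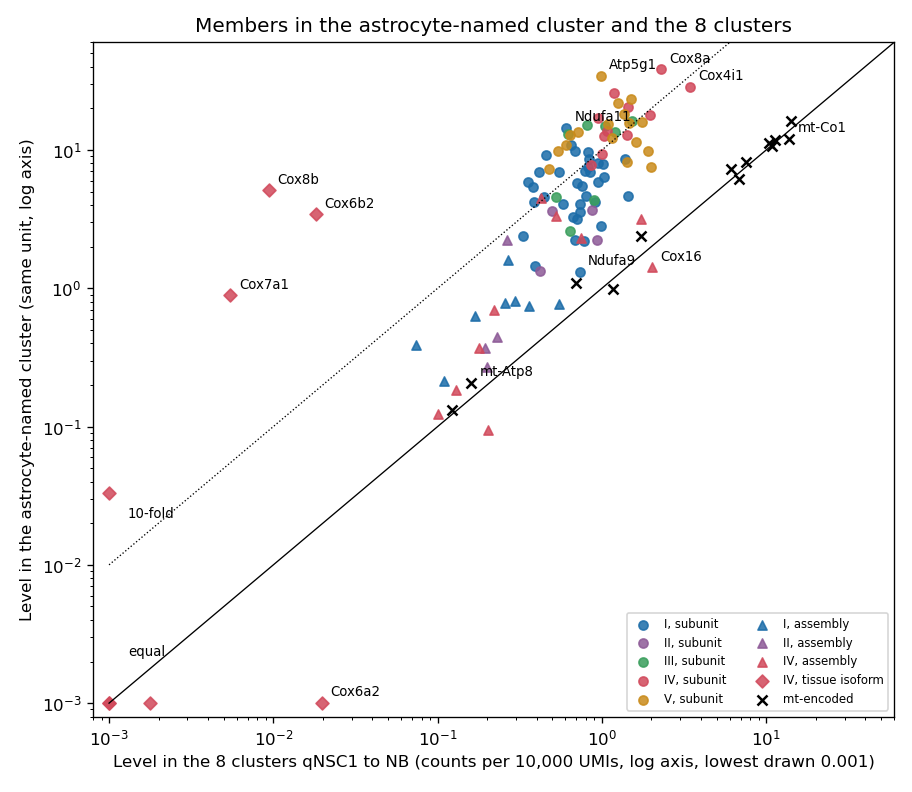
Level of each gene in the 8 clusters (horizontal) and in the astrocyte-named cluster (vertical), both in counts per 10,000 UMIs on log axes, with values below 0.001 drawn at 0.001. Colours are complexes, circles structural subunits, triangles assembly factors, diamonds tissue isoforms and crosses mt-encoded genes. The crosses lie along the line of equal levels, the subunits of complexes III, IV and V cluster near the 10-fold line, and Cox8b, Cox6b2 and Cox7a1 lie far above it.

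The ratio differed by complex. Summed over their nuclear subunits, complex II had the lowest ratio, 3.99, complex I had 7.99, complex III 11.6, complex V 12.1 and complex IV 12.3, while the assembly factors had 2.76. All 76 structural subunits were higher in the astrocyte-named cluster and 75 were at least 2-fold higher. The exception was Ndufa9, an accessory subunit of complex I, at 0.732 in the 8 clusters and 1.31 in the astrocyte-named cluster. Of the subunits, 8 of complex I, 2 of complex II and 1 of complex V reached the filter level only in the astrocyte-named cluster. With the filter on the 8 clusters, 27 of 28 subunits of complex I were at least 2-fold higher. Complex II had 2 of 2, complex III 8 of 8, complex IV 11 of 11 and complex V 16 of 16. Of all genes so filtered, 11.9% were at least 2-fold higher. Within complex I the ratios ran from 1.79 for Ndufa9 to 23.9 for Ndufa11, an accessory subunit of the membrane arm, with levels of 0.608 and 14.5. Its median ratio over 36 subunits was 7.54. Core subunits, which bind the flavin and iron-sulfur clusters that carry the electrons, included Ndufs1 at 0.393 and 1.44, Ndufv1 at 0.331 and 2.37, and Ndufv2 at 0.703 and 5.79.

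Complex II, which is also an enzyme of the tricarboxylic acid cycle, ran from 2.37 for Sdha to 7.30 for Sdhc. The flavoprotein Sdha had 0.937 and 2.23, the iron-sulfur protein Sdhb 0.874 and 3.69, and the membrane anchors Sdhc and Sdhd 0.499 and 3.64, and 0.420 and 1.34. In complex III the ratios ran from 4.06 for the core protein Uqcrc1 to 20.9 for the small subunit Uqcr10, with a median of 10.9. Uqcrh, the hinge protein, had the highest level of this complex, 1.53 and 16.1. In complex IV the ratios lay between 8.36 for Cox4i1 and 21.8 for Cox6c. Cox8a had the highest level of all nuclear genes here, 38.3 against 2.29, followed by Atp5g1 with 34.3 and Cox4i1 with 28.6.

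Complex V had both a high and a low extreme in the same subunit. Atp5g1, Atp5g2 and Atp5g3 encode the same mature subunit c of the rotor ring and differ in their import peptides. Atp5g1 had 0.983 in the 8 clusters and 34.3 in the astrocyte-named cluster, a ratio of 34.9, the highest of all structural subunits. Atp5g2 had 1.98 and 7.56, a ratio of 3.81, the lowest of complex V. Atp5g3 lay between them with 0.544 and 9.85. Atp5g2 was thus the highest of these 3 genes in the 8 clusters and the lowest in the astrocyte-named cluster. The catalytic subunits Atp5a1 and Atp5b had 1.92 and 9.76, and 1.75 and 15.9.

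Assembly factors build the complexes without being part of them. Among the genes of the set that reached a level of 0.5, Cox16, a complex IV assembly factor, had the lowest ratio. It had 2.02 in the 8 clusters and 1.42 in the astrocyte-named cluster, 0.70 times. Its level in IN2, 3.63, was above that in each of the 8 clusters. Ndufaf7 had 0.551 and 0.770, Ndufaf2 0.361 and 0.739, and Cox7a2l, which joins complexes III and IV into supercomplexes, 1.72 and 3.17. Below that level, Cox10, which makes haem for complex IV, had 0.203 and 0.095.

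Tissue isoforms replace a common subunit of complex IV in muscle or other tissues, and 3 of them had their counts mainly in the astrocyte-named cluster. Cox8b, the heart and muscle form of subunit 8, had 526 UMIs in 85 of the 134 cells there and 70 UMIs in the 10292 cells of the 8 clusters, levels of 5.10 and 0.009. Cox6b2, known as the testis form of subunit 6b, had 378 and 135 UMIs and levels of 3.43 and 0.018. Cox7a1, the heart and muscle form of subunit 7a, had 86 and 41 UMIs and levels of 0.892 and 0.005. The common forms of the same subunits were also higher there, Cox8a at 38.3 against 2.29, Cox6b1 at 12.8 against 1.42 and Cox7a2 at 12.7 against 1.04. Cox8a therefore stayed above Cox8b in both groups, by 3′ counts not divided by length. Cox6a2, the muscle form of subunit 6a, had 163 UMIs in the 8 clusters, a level of 0.021, and 0 in the astrocyte-named cluster. The 1003783 UMIs of that cluster allow a level of up to 0.030 at a count of 0, so a difference was not detectable. Among the 8 clusters its level was highest in qNSC1, 0.104. Cox4i2 had 14 UMIs in the 8 clusters and 0 in the astrocyte-named cluster, and Cox7b2 had 2 and 1.

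The levels of the mt-encoded genes differed by less than 2-fold between the groups, from 0.847 times for mt-Nd3 to 1.57 times for mt-Nd4l. The level of mt-Co3 was 14.2 in the 8 clusters and 16.2 in the astrocyte-named cluster, that of mt-Co1 13.9 and 11.98, and that of mt-Co2 10.4 and 11.3, for the 3 core subunits of complex IV. The complex III subunit mt-Cytb had 10.8 and 10.6, and the ATP synthase subunit mt-Atp6 11.4 and 11.8. Of the complex I genes, mt-Nd4 had 7.53 and 8.15, mt-Nd1 6.82 and 6.13, mt-Nd2 6.11 and 7.29, mt-Nd5 1.72 and 2.40, mt-Nd3 1.17 and 0.988, and mt-Nd4l 0.697 and 1.09. The lowest levels were those of mt-Atp8, 0.161 and 0.208, and mt-Nd6, the only gene of the set on the other strand, with 0.122 and 0.132. Some of these genes share bases on the same strand, so their counts cannot be fully told apart. On GRCm38, mt-Atp8 and mt-Atp6 share the 43 bases of chrM:7927-7969, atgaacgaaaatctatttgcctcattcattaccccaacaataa, which hold the start of mt-Atp6, and mt-Nd4l and mt-Nd4 share 7 bases at chrM:10167-10173.

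Within the 8 clusters the differences were small, but many subunits shared them. The highest summed nuclear level, in NSPCs, was 1.28 times the lowest, in eNB, and the highest mt-encoded level, in qNSC1, was 1.28 times the lowest, in NB. Of the 76 structural subunits, 41 had their highest level in NSPCs and 28 in qNSC1. Their lowest levels were spread over all 8 clusters, with 18 in eNB and 16 in NB. The clusters in which other genes had their highest and lowest levels were not counted. These numbers therefore do not show whether the pattern is particular to the set. By gene the highest level was between 1.15 and 2.11 times the lowest in complex I and between 1.32 and 1.80 times in complex V. The largest of these ratios belonged to Ndufs8, an iron-sulfur subunit of complex I, with 1.01 in qNSC1 and 0.482 in qNSC2.

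Each of the highest clusters was set against IPC1, IPC2, eNB and NB together in each library. These clusters were chosen for their high sums of these genes, so the counts describe them and support nothing. Of 74 nuclear genes that reached a level of 0.5, 61 were higher in NSPCs by log2 0.2 or more in both libraries (19.1% of all genes were) and 1, Cox16, was lower (30.7%). By complex these were 24 of 30 genes of complex I, 1 of 3 of complex II, 7 of 8 of complex III, 10 of 11 of complex IV and 16 of 17 of complex V. Of the mt-encoded genes 8 of 11 were higher. Among the 65 nuclear genes that reached the level in the comparison clusters of both libraries, 54 were higher in NSPCs (17.2% of all genes so filtered) and 1 lower (32.1%). With the filter on either group, cytosolic ribosomal proteins gave 72 of 81 higher in NSPCs and 64 of 81 higher in qNSC1. For qNSC1, 40 of 72 nuclear genes were higher in both libraries (23.2% of all genes) and 1, Cox7a2l, was lower (29.4%), with 10 of 29 genes of complex I and 13 of 17 of complex V. Of the mt-encoded genes 10 of 11 were higher. With the filter on the comparison clusters, 35 of 65 nuclear genes were higher (18.8%) and 1 lower (31.7%). NSPCs thus had more of the complex I genes above the threshold and qNSC1 more of the mt-encoded ones, and the difference between these clusters was not tested.

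The clusters also differed in the sexes of their cells. IPC2 held 1067 cells scored as male and 9 as female among 1170 WT cells, and 616 and 116 among 793 iKD cells, whereas 90.3% of eNB cells were scored as female. NSPCs were above the clusters of intermediate progenitor and neuroblast names within each sex too. Female WT cells had a nuclear level of 97.8 in NSPCs, 78.5 in IPC1 and 76.7 in eNB, and male WT cells 99.99 in NSPCs, 77.4 in IPC2 and 76.6 in eNB.

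The comparison of genotypes asks how these genes stood after VEGF knockdown, and over the 6 clusters the summed levels were nearly the same in both libraries. The summed nuclear level was 85.5 in WT and 84.7 in iKD. Its log2 ratio, iKD over WT, was -0.013 (-0.021 to -0.005). For the mt-encoded genes the sums were 87.7 and 86.1, with a log2 ratio of -0.026 (-0.034 to -0.018). Log2 ratios are of levels with 0.01 added to each, and the intervals cover counting error only. By cluster the nuclear ratio ran from -0.08 in aNSCs to 0.03 in IPC2, below 0 in 5 of the 8 clusters, and the mt-encoded ratio from -0.08 in eNB to 0.07 in NB, below 0 in 6. The nuclear ratio was -0.023 for complex I, 0.019 for complex II, -0.033 for complex III, -0.028 for complex IV, 0.002 for complex V and 0.013 for the assembly factors. The cytosolic ribosomal proteins, at 477 and 463, had -0.043.

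Of the 71 nuclear genes that reached a level of 0.5 in the 6 clusters, 3 were lower in iKD by log2 0.2 or more (3.13% of all such genes were) and 0 were higher (1.79%). A share of 3 in 71 is near that of all genes. The median ratio was 0.006, against 0.009 for all genes, and 54 of the 71 lay within 0.1 of 0. The counting interval was below 0 for 19, above 0 for 8 and spanned 0 for 44. Intervals were not computed for genes outside the set. These counts therefore do not show whether the set differs from other genes.

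The 3 genes were Ndufa3, Atp5k and Cox17. Ndufa3, an accessory subunit of complex I at chr7:3617373-3620327, had 0.665 in WT and 0.531 in iKD, -0.32 (-0.42 to -0.22). It was lower in 6 of the 8 clusters, most in IPC2 and NSPCs, at -0.39 and -0.38. Atp5k, the e subunit of ATP synthase at chr5:108433244-108434448, had 0.553 and 0.460, -0.26 (-0.37 to -0.15), and was lower in 7 of the 8. Cox17, the copper chaperone of complex IV at chr16:38346991-38352763, had 0.813 and 0.704, -0.21 (-0.30 to -0.12), and was lower in 8 of 8. Just short of the threshold were Cox7c, a small subunit of complex IV, with 2.16 and 1.89, lower in 8 of 8 clusters, and Atp5j2, the f subunit of ATP synthase, with 1.28 and 1.11. The X-linked Ndufa1, another complex I accessory subunit, lay under the level filter with 0.482 and 0.393, -0.29. Coordinates are those of GENCODE release M21 on GRCm38.

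At the other end, Atp5g1 had 0.971 in WT and 1.08 in iKD, 0.15 (0.08 to 0.23), and was lower in 0 of the 8 clusters. Ndufa11 followed with 0.602 and 0.668, 0.15, and then Ndufa9 with 0.716 and 0.789, 0.14. Atp5d, the delta subunit of the ATP synthase stalk, had 1.09 and 1.19, 0.12, and Cox14, a complex IV assembly factor, had 0.10. None of these passed the threshold. Atp5g1 and Ndufa11 were also among the genes with the largest ratio of the astrocyte-named cluster to the 8 clusters. The summed choroid plexus markers were higher in iKD cells of the 6 clusters, at 10.6 against 0.153 in WT. Most of each sum was Ttr, at 10.2 in iKD and 0.137 in WT. The part of these markers in these ratios was not tested.

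Among the mt-encoded genes 1 of 11 was lower by log2 0.2 or more (3.13% of all genes), and 0 were higher (1.79%). This was mt-Nd3, a core subunit of the membrane arm of complex I at chrM:9459-9806, with 4072 UMIs and a level of 1.34 in WT and 2542 UMIs and 1.04 in iKD, -0.35 (-0.43 to -0.28). It was lower in 8 of the 8 clusters, from -0.66 in aNSCs to -0.05 in NB, and its counting interval lay below 0 in 7. The neighbouring mt-Nd4l had 0.741 and 0.663, -0.16 (-0.25 to -0.07). The genes with high levels differed by less, with mt-Co1 at 14.6 and 13.8, -0.08, mt-Cytb at 11.3 and 10.8, -0.06, and mt-Nd1 at 6.91 and 7.12, 0.04. The mt-encoded genes, which are cut from long joint transcripts, thus had ratios between -0.35 and 0.04.

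**Figure D4:**
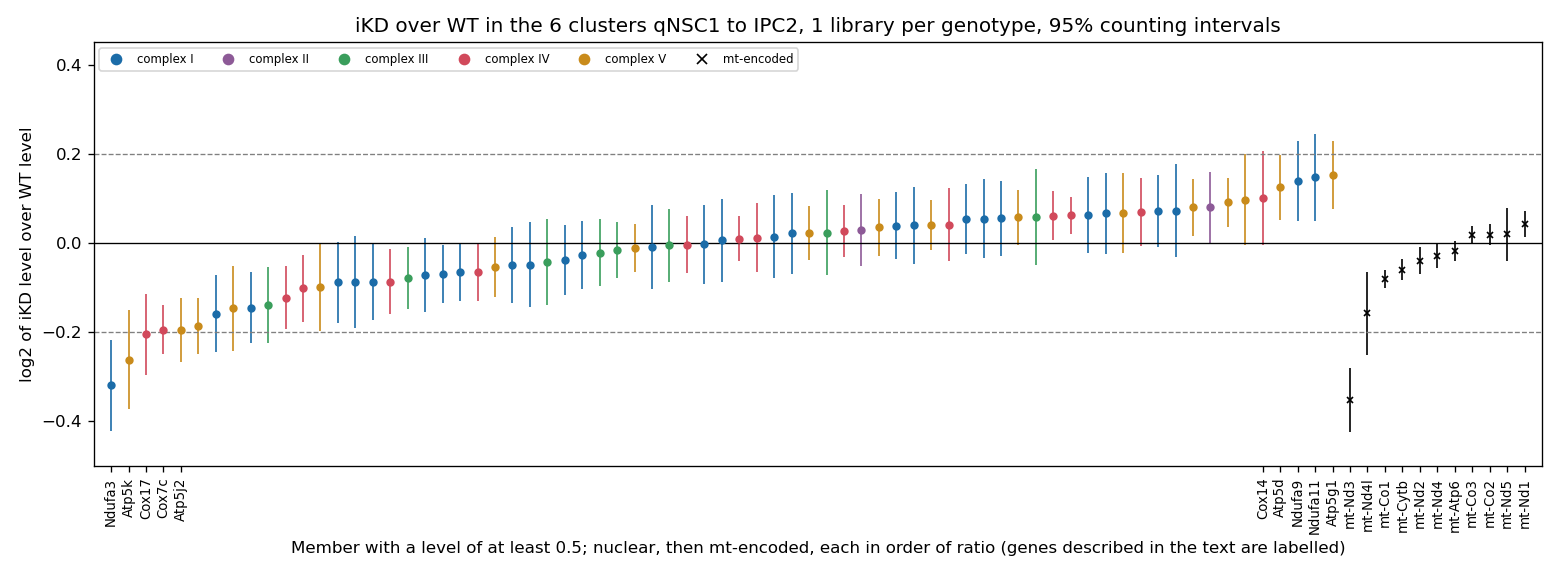
Log2 ratio, iKD over WT, in the 6 clusters for the 71 nuclear and 11 mt-encoded genes that reached a level of 0.5, each group in order of its ratio. Points are coloured by complex, crosses are mt-encoded, bars are 95% counting intervals and dashed lines mark 0.2 in either direction. Ndufa3, Atp5k, Cox17 and mt-Nd3 lie below the lower line, and no gene lies above the upper one.

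The genotypes differed in their shares of female and male cells. Over the 6 clusters 47.0% of WT cells and 65.4% of iKD cells were scored as female. Female WT cells had a nuclear level of 89.1 and female iKD cells 84.6, whereas male cells had 81.9 and 83.8. The summed nuclear ratio was thus -0.07 in female and 0.03 in male cells, and the mt-encoded ratio -0.06 and -0.02. In female cells 12 of the 71 nuclear genes were lower by log2 0.2 or more (3.86% of all genes) and 0 higher (4.45%), and their median was -0.05. In male cells 3 were lower (7.07%) and 4 higher (5.54%), and the median was 0.02. The female ratio was below the male one for 58 of the 71. This was not counted for other genes, so it does not show a trait of the set. Clusters took different shares of each sex, with 1067 IPC2 cells among the 1686 male WT cells of the 6 clusters. NSPCs, the cluster with the highest nuclear level, made up 829 of 1765 female WT cells and 656 of 2230 female iKD cells. Within NSPCs the female nuclear level was 97.8 in WT and 96.3 in iKD, and within IPC1 78.5 and 77.7. It was 87.2 and 82.95 within qNSC2, and 85.04 and 78.9 within aNSCs. The part of cluster make-up in the ratios by sex was not tested.

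The genes with the lowest ratios kept their direction in each sex. Ndufa3 had -0.32 in female and -0.38 in male cells, Atp5k -0.37 and -0.23, Cox17 -0.26 and -0.16, and mt-Nd3 -0.33 and -0.43. Atp5g1, by contrast, had 0.03 in female and 0.31 in male cells, and Ndufa11 0.11 and 0.16. In aNSCs, where 19.3% of WT and 88.9% of iKD cells were scored as female, 26 of 72 nuclear genes were lower (19.3% of all genes) and 11 higher (25.1%). That cluster had 197 WT and 108 iKD cells. Within one sex, the 38 female WT cells had a summed nuclear level of 85.04 (81.8 to 88.4) and the 96 female iKD cells 78.9 (76.8 to 80.9).

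**Figure D5:**
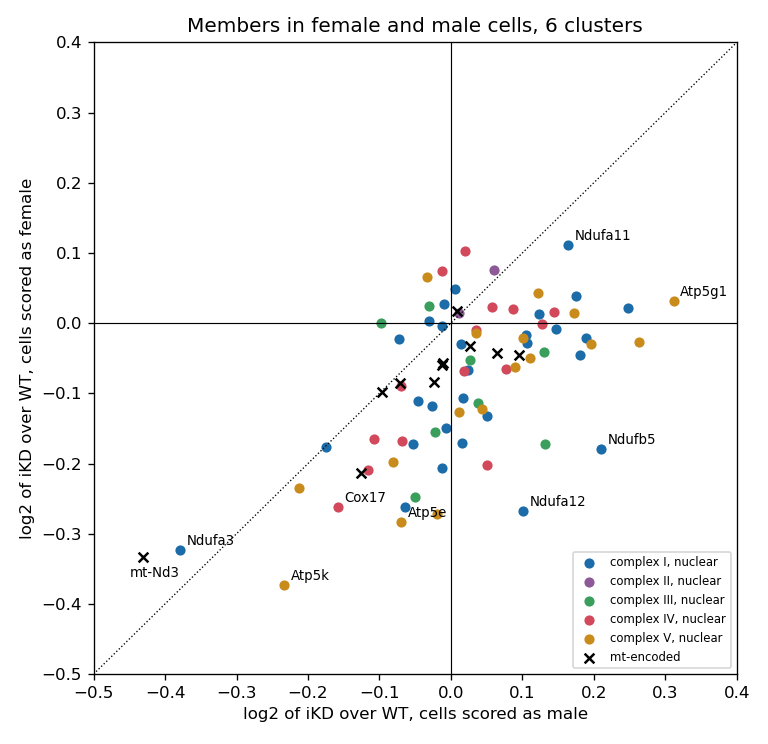
Log2 ratio of iKD over WT in cells scored as male (horizontal) and as female (vertical) over the 6 clusters, for the genes that reached a level of 0.5. Colours are complexes, crosses are mt-encoded genes and the dotted line marks equal ratios. Of the 71 nuclear genes 58 lie below that line, a count not made for other genes. Ndufa3, Atp5k, Cox17 and mt-Nd3, picked by their ratio in all cells together, lie below 0 in both sexes.

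The ratios were also related to the length of the transcript. Across the 70 nuclear genes with an annotated length, the ratio and the median transcript length correlated with a Spearman rho of 0.47, against 0.097 over 3770 genes. In female cells these were 0.42 and 0.29, and in male cells 0.45 and -0.046. These values are across genes, and genes are not independent replicates. Of the 24 nuclear genes with transcripts under 600 bases, 18 had a ratio below 0, with a median of -0.059. The 25 cytosolic ribosomal protein genes of that length had a median of -0.060, with 18 below 0. The other 123 genes of that length had -0.017, with 77 below 0. Atp5k, at 321.5 bases, Ndufa3, at 433, and mt-Nd3, at 348, were among these short transcripts. Cox17, also lower in iKD past the threshold, was not, with a median transcript length between 2000 and 4000 bases. The part of transcript length in these ratios was not tested.

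Of the tissue isoforms, Cox8b and Cox6b2 had more counts in iKD than in WT, at low levels. In the 6 clusters the 8 isoforms summed to 0.044 in WT and 0.072 in iKD. Cox8b had 1 UMI (0.025 to 5.57) in 3752 WT cells and 45 (32.8 to 60.2) in 3412 iKD cells, and Cox6b2 had 35 (24.4 to 48.7) and 62 (47.5 to 79.5). Cox7a1 had 13 UMIs in each genotype and Cox6a2 75 and 55. The choroid plexus transcript Ttr, with 407 UMIs in WT and 24239 in iKD, was detected in 9.46% and 99.7% of these cells. The Cox8b level was 0.182% of that of Ttr in iKD cells of the 6 clusters and 0.491% in iKD cells of the astrocyte-named cluster, and for Cox6b2 these were 0.251% and 0.335%. The part of RNA from other cells in these counts was not tested.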

How the data were processed

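The RNA of single EYFP+ dentate gyrus cells had been sequenced in 1 WT and 1 iKD library. According to the methods, Cell Ranger 7.0.1 aligned and deduplicated the 3′ reads, and Seurat 4.1.1 filtered, integrated and clustered the cells. The submitters' processing notes name the human build GRCh38 for these mouse samples, so the mouse build is not given in the sources used here. The authors deposited 1 table per cluster of natural log values, in which the UMIs of a gene were scaled to 10,000 per cell and 1 was added before the log. From these the UMI counts were recovered, and 100% of 32261786 values above 0 came out whole within 0.01. 0 columns were left unused. Of the deposited cells, 232 WT and 264 iKD cells had under 2000 genes, the lower limit of the methods, which 5311 and 4997 reached, and all were used.

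Levels are means over cells of counts per 10,000 UMIs. Log2 ratios have a pseudocount of 0.01 and are counted among genes that reach a level of 0.5 in either group, at log2 0.2 between genotypes and log2 1 for the astrocyte-named cluster. Exact Poisson and binomial 95% intervals cover counting error only. No test was made. UMI counts of near-identical pseudogenes cannot be told apart from their parent genes. Gene positions are from GENCODE M21 on GRCm38, matched by symbol for 118 genes, and promoters from RefSeq on GRCm38.p6. The genes and lists were chosen with earlier results of these data known. Genes named are the 3 highest of a complex, all mt- genes, the 5 with the largest and smallest ratios of each comparison, the tissue isoforms, genes with 0 UMIs, the 5 most alike in profile and the 3 highest of each companion list, and others of the set to illustrate a complex. Steps were tested on simulated data. Alternatives were another scaling, denominator, pseudocount, filter, set of cells or clusters, and thinning to 4500 UMIs, which kept 5280 WT and 4904 iKD cells. Python 3.11.15, numpy 2.4.6, scipy 1.17.1, pandas 2.3.3 and matplotlib 3.10.9 were used.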

Additional observations from a re-analysis of the deposited data

Results flagged for a closer look

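In the genes below the iKD to WT ratio over the 6 clusters pointed one way in cells scored as female and the other way in cells scored as male, and both counting intervals left out 0. Ndufb5, an accessory subunit of complex I, had a log2 ratio of -0.18 in female and 0.21 in male cells. The complex IV core subunit mt-Co2 had -0.04 in female and 0.06 in male cells. With 1 library per genotype the difference between the sexes was not tested, and these were 2 of the 82 genes looked at. The same clusters held different shares of female and male cells in WT and iKD, and the part of that make-up in these values was not tested.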

How the results depend on the processing

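No paired analysis was possible because each genotype has 1 library, and no library could be left out. Of 99 recomputed values 69 moved by less than the tolerance and 30 by more. The tolerance was the counting error, or for counts 1.5 times. For the median ratio of the nuclear genes it was the typical interval of a single gene, -0.075 to 0.086. That is not the counting error of a median. All 15 of its settings, from -0.057 to 0.022, fell within it and are among the 69. The filter on the comparison clusters alone was chosen after seeing the data. The nuclear ratio of iKD over WT was -0.0742 in female cells, 0.0333 in male cells, where its direction turned, and -0.0224 when centred on all genes. The mt-encoded ratio was -0.0628 in female cells, -0.0357 when centred and -0.0359 as the mean of ratios within clusters. With the level filter applied within the female cells, 14 nuclear genes were lower. When centred, and as the mean within clusters, 5 were lower, and with a pseudocount of 1 there were 0. Higher genes numbered 4 in male cells and 2, Cox6b2 and Cox8b, with no level filter.

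The nuclear ratio of the astrocyte-named cluster was 9.84 with summed UMIs, 11.4 with a denominator without Ttr, sex-linked, mt- and ribosomal genes, 4.23 in female and 3.64 in male cells, 9.84 without the 5% of cells with the most genes, 9.67 after thinning and 10.3 for structural subunits alone. The mt-encoded ratio was 1.07, 1.255, 1.20, 0.820, 1.02 and 1.07 under the same settings, apart from the last. Highest over lowest of the 8 clusters was, for nuclear genes, 1.30 with that denominator, 1.29 in male cells and 1.30 for structural subunits, and for mt-encoded genes 1.36 in female and 1.33 in male cells. NSPCs stayed highest and eNB lowest for nuclear genes under every alternative run. For mt-encoded genes these were qNSC1 and NB except in female cells (NSPCs and IPC2) and after thinning (qNSC1 and IPC2).

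Intervals cover counting error alone, so no value shows what mice of 1 genotype vary by. The 4 WT cells of the astrocyte-named cluster make its comparison between genotypes a description of few cells.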

Other observations

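Companion genes of energy metabolism, outside the symbol rule, were counted by lists chosen with earlier results known. Between genotypes none of them passed log2 0.2 in the 6 clusters (3.13% of all genes were lower and 1.79% higher), among the 7 of 13 tricarboxylic acid cycle enzymes, 7 of 8 electron carriers and exchange proteins, 3 of 9 regulators of mitochondrial genes, 1 of 11 genes of mitochondrial DNA expression and 2 of 8 genes of uncoupling and assembly that had a level of at least 0.5. The median log2 ratios of the enzymes and of the carriers were 0.08 and 0.04. Slirp, which stabilizes mitochondrial mRNA, lay under that level with 0.489 in WT and 0.381 in iKD, -0.35.

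Of the 7 enzymes of the cycle that reached a level of 0.5 in the 8 clusters, 3 were at least 2-fold higher in the astrocyte-named cluster and 0 lower, beside 11.9% and 56.2% of all genes so filtered. The largest ratio of the list was that of Idh3a, a subunit of isocitrate dehydrogenase, at 3.75 against 0.156, followed by Suclg1 with 4.61 and 0.571 and Mdh2 with 6.01 and 0.779. All 7 electron carriers and exchange proteins that reached it in the 8 clusters were at least 2-fold higher. Cytochrome c, which reached it only in the astrocyte-named cluster, had 6.91 against 0.445 (Cycs). The 7 included the adenine nucleotide carrier Slc25a4 (16.3 against 1.14) and the phosphate carrier Slc25a3 (16.1 against 1.85). The regulators did not share this pattern. Nrf1 had 0.216 against 0.894 and Creb1 0.499 against 1.78, while the coactivator Ppargc1a had 0.325 against 0.001. Of the genes for mitochondrial DNA expression, the transcription factor Tfam had 0.373 against 0.238, and Slirp had 1.40 against 0.425. The ATP synthase inhibitor Atpif1 had 7.05 against 1.48.

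Outside the set, the genes whose level profile over the 12 clusters was most like the summed nuclear level were Slc25a3, Smdt1, Tomm7, Chchd2 and Elob, with Pearson r between 0.9993 and 0.9997 among 6150 genes (n = 12). These values rest largely on the astrocyte-named cluster. Over the 8 clusters alone they were Tyrobp, Pfn1, Edf1, Pgls and Selenof, with r between 0.973 and 0.999 among 4498 genes (n = 8). The microglial adaptor Tyrobp ran from 16.2 to 22.4 in the 8 clusters and had 4.05 in the astrocyte-named cluster.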
